A study of Mus musculus with 12 samples.

Results

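The insulin-like growth factor genes described here are the 2 ligands Igf1 and Igf2, the 2 receptors Igf1r and Igf2r, and the 6 binding proteins Igfbp2 to Igfbp7. They were taken by name from the muscle and the bone table of the series, and all 10 were found among 25655 genes in each. The cells were PDGFRα+ mesenchymal cells sorted from muscle (CD45-, CD31- and Vcam1-) or from bone (CD45- and CD31-), and their RNA was read from transcript 3' ends. Each tissue had 3 control and 3 knockout samples. Every knockout sample carried PDGFRα-CreER, an inducible Cre driven by the gene of the sorting marker, together with Esr1flox/flox, which removes estrogen receptor alpha after recombination. Muscle controls were PDGFRα-CreER in replicates 1 and 2 and PDGFRα-CreER;Esr1flox/+ in replicate 3. Bone controls were Esr1flox/flox without Cre in replicate 1 and PDGFRα-CreER in replicates 2 and 3. The mice were female, per the series title, which also names IGFBP5. The sources used here give neither age, nor the tamoxifen schedule, nor whether replicates came from separate animals. The test behind the p-values is not named either, so they cannot be taken to measure the spread between animals.

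IGF1 and IGF2 are secreted growth factors that signal through the tyrosine kinase receptor IGF1R. IGF2R binds IGF2 and carries it to lysosomes without passing on a growth signal. The binding proteins hold the ligands in blood and matrix, where they prolong their life, keep them from the receptor or release them close to it. IGF1 stimulates bone formation, and IGFBP5 is stored in bone matrix and also made by muscle and stromal cells.

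The values below are the authors' own comparison of knockout with control in each tissue. The columns of single libraries carry codes that match no sample label, so no value per sample, standard deviation or depth could be given for any gene. The level of a gene is the larger of its knockout and control means, in a unit the tables do not name. Positive log2 fold changes are higher in the knockout. A gene was called at a false discovery rate (FDR) under 0.05. Most log2 fold changes of the IGF genes are given with a standard error (SE), a 95% interval or both. These are what the deposited p implies for a normally distributed statistic, since the tables hold no error.

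Of the sorted cells, the muscle table held all 8 mesenchymal markers above 0, with Pdgfra at a larger group mean of 494 in the authors' deposited table. In bone the 8 markers were above 0 too, at a summed larger group mean of 840 against 17137 in muscle. The authors' deposited table listed Pdgfra in bone at 8.60, below the leukocyte gene Ptprc at 23.1, which encodes the CD45 used to gate cells out. Both are knockout means, since both genes had positive log2 fold changes. Dividing each mean by its fold reverses the order in the control, so Ptprc was above Pdgfra in the bone knockout only. The 4 globin genes held 58.4% of all larger group means added up in bone, against 0.338% in muscle. The targeted gene Esr1 had log2 fold changes of 1.02 in muscle (FDR = 1.00) and -2.69 in bone (FDR = 0.440) in the authors' deposited table, so neither was called. The floxed exons are not named in the labels, and a 3' tag can lie outside the deleted part, so these values do not check the genotype. All directions below rest on the knockout and control labels alone.

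Binding protein transcripts dominated the IGF genes in both tissues. In muscle the authors' deposited table put the larger group means in the order Igfbp7 (2141), Igfbp5 (1406), Igfbp4 (1160), Igf1 (701), Igfbp6 (500.3), Igfbp3 (308), Igf2 (108), Igf1r (88.4), Igf2r (75.9) and Igfbp2 (1.26). Igfbp7, a secreted protein that binds IGFs weakly and is found around vessels and in stroma, stood at percentile 99.4 of the 13158 muscle genes above 0. Igfbp5 stood at percentile 99.1 and Igf1 at 98.2. Igfbp2 stood at percentile 12.5. The larger mean comes from the knockout for some genes and from the control for others, so the mean of the other group was also computed by dividing it by the fold. Implied control means put Igfbp4 (1013) above Igfbp5 (600.2) and Igfbp6 (500.3) above Igf1 (334), so the printed order holds in the knockout and not in the control. The 6 binding proteins together were 8.88 times the 2 ligands in the control (3926 against 442) and 6.89 times in the knockout (5458 against 792). Reads come from transcript ends, and the sources used here do not say whether the authors divided them by length, so levels of different genes are compared on the scale of the table. The spread behind the levels is unknown, and no neighbours in the order could be tested.

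In bone the same binding protein led at lower values. The order there in the authors' deposited table was Igfbp7 (490.5), Igfbp4 (193), Igfbp6 (92.9), Igfbp5 (82.9), Igf1 (28.3), Igf1r (27.8), Igf2 (7.37), Igf2r (6.93) and Igfbp3 (3.63), with Igfbp2 listed at 0. Igfbp7 was at percentile 98.6 of the 10518 bone genes above 0, Igfbp5 at 91.4 and Igf1 at 73.8. Igfbp3, the main IGF carrier of blood, was at percentile 96.0 in muscle and 31.3 in bone. That order also mixes the groups. By implied means Igfbp6 ranked 2 in the control (92.9) and 4 in the knockout (53.0), and Igf1 was below Igf1r in the knockout (8.74 against 27.8). Igfbp7 led in both groups, but its 490.5 is the control mean, and in the knockout it stood at 199 against 193 for Igfbp4. The binding proteins were 24.7 times the ligands in the control (699 against 28.3) and 33.0 times in the knockout (532 against 16.1). All 10 genes together held 0.564% of the larger group means of all genes added up in muscle and 0.0797% in bone, or 0.191% in bone with the globin genes left out of the sum. The tissues have separate tables and their normalization is not stated, so shares and percentiles are set side by side without a test. In such bulk samples fewer cells of a type and less RNA per cell cannot be told apart.

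**Figure D1:**
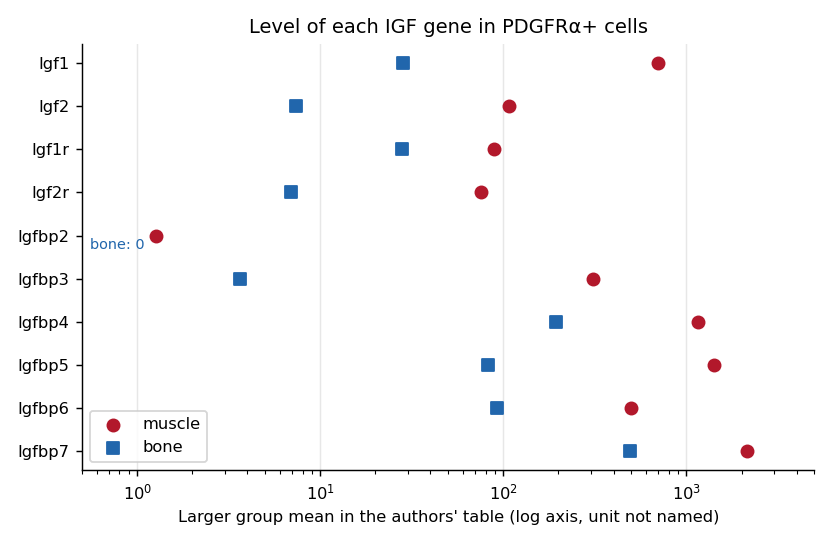
Larger group mean of each IGF gene in the authors' deposited tables on a log axis, with 1 circle per gene for muscle and 1 square for bone. Each muscle point lies to the right of the bone point of the same gene, and Igfbp2 was listed at 0 in bone. Igfbp7 leads in both tissues, at 2141 (the knockout mean) and 490.5 (the control mean). Its implied mean in the bone knockout is 199, close to the 193 of Igfbp4.

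In muscle, 1 of the 9 IGF genes with an FDR was called, and it rose in the knockout. Among all muscle genes 0.127% of 7107 were called, 9 in number. That gene was Igfbp5 (ENSMUSG00000026185), for which the authors' deposited table gave a log2 fold change of 1.23 (SE 0.28, 95% interval 0.68 to 1.78, FDR = 0.0180). This is a 2.34-fold difference, and the deposited p of 1.26e-05 was the 5th smallest of 13158. The call held with Benjamini-Hochberg adjustment over all genes with a p (0.0332) and over genes whose larger group mean reached 50 (0.00794), while the Bonferroni p in the authors' deposited table was 0.166. Of the 814 muscle genes with a larger group mean above 200, 7 had a log2 fold change at least as high as that of Igfbp5, itself included. The series title names IGFBP5, and it is not known here whether the study picked it from these samples.

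Igf1, the ligand, had the second largest log2 fold change of the set, 1.07 in the authors' deposited table (SE 0.37, 95% interval 0.35 to 1.79). Its p was 0.00366, the 99th smallest of 13158, and its FDR of 0.268 did not pass. At an unadjusted p under 0.05, Igfbp5 and Igf1 were 2 of the 10 IGF genes, beside 11.7% of all muscle genes with a p. At an FDR under 0.1 the count stayed at 1 of 9, beside 0.183% of all genes. Fold changes of abundant muscle genes were tightly spread. Among the 165 genes with a larger group mean above 1000, the 5th and 95th percentiles were -0.49 and 0.56, and Igfbp5 lay above this range. Among the 169 genes between 500 and 1000 they were -0.59 and 0.79, and Igf1 lay above it. Both genes are in these bins through their knockout mean. With genes binned by the smaller implied group mean instead, the 95th percentile was 0.56 for the 119 genes of the bin of Igfbp5 and 0.73 for the 348 of the bin of Igf1, and both genes again lay above it. This is a description of these tables and not a test.

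The other 8 IGF genes lay inside the 5th to 95th percentile range of muscle genes of their level, also with bins of the smaller implied mean or of the mean of both groups. Igf2, the second ligand and an imprinted gene, had -0.26 in the authors' deposited table (SE 0.73, FDR = 1.00). Igf1r, the signalling receptor, had 0.02 (SE 0.65), with a 95% interval of -1.26 to 1.29, and Igf2r had 0.89 (SE 0.83) in the authors' deposited table. Among the binding proteins, Igfbp3 had 0.67 (SE 0.43, p = 0.115) and Igfbp7 0.40 (SE 0.28, p = 0.151) in the authors' deposited table. Igfbp4, a binding protein whose cleavage by the protease PAPP-A frees the ligand, had 0.19 (SE 0.31). Igfbp6, which prefers IGF2, had -0.18 (SE 0.34) in the authors' deposited table. The intervals of Igfbp4 (-0.41 to 0.80) and Igfbp6 (-0.83 to 0.48) leave out the value of Igfbp5. The interval of Igfbp5 itself, 0.68 to 1.78, overlaps that of Igfbp4 but not that of Igfbp6. Differences between genes were not tested. Igfbp2 was near 0 in level and had no FDR (-0.13, SE 2.23 in the authors' deposited table).

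Taken as a set, 7 of the 10 muscle values were positive, with a median of 0.30, beside 53.5% positive and a median of 0.12 over all 13158 genes with a p. In the same comparison 7 of 8 mesenchymal markers had positive values, ranging from -0.77 to 0.91 with a median of 0.51, at a summed larger group mean of 17137. Dcn, which encodes the matrix proteoglycan decorin, had the smallest p of these markers, with 0.65 in the authors' deposited table (FDR = 0.518). All 5 erythroid markers had negative values, from -5.64 to -0.58, at a summed larger group mean of 3929. The 3 Schwann cell markers were negative too, from -2.44 to -0.22, at a sum of 179. The 5 leukocyte markers had values from -5.46 to 2.50, 2 of them positive, at a sum of 104, and the 3 endothelial markers from -1.54 to 7.88, 1 of them positive, at a sum of 15.4. The 6 mural markers had values from -0.39 to 2.26, 4 of them positive, at a sum of 837. Both tendon markers were negative, from -5.18 to -0.25, at a sum of 111. The 5 muscle fibre and satellite markers with a p had values from -7.75 to 0.62, 2 of them positive, at a sum of 154. No marker of these lists was called. The part of these cell markers in the Igfbp5 and Igf1 values was not tested.

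**Figure D2:**
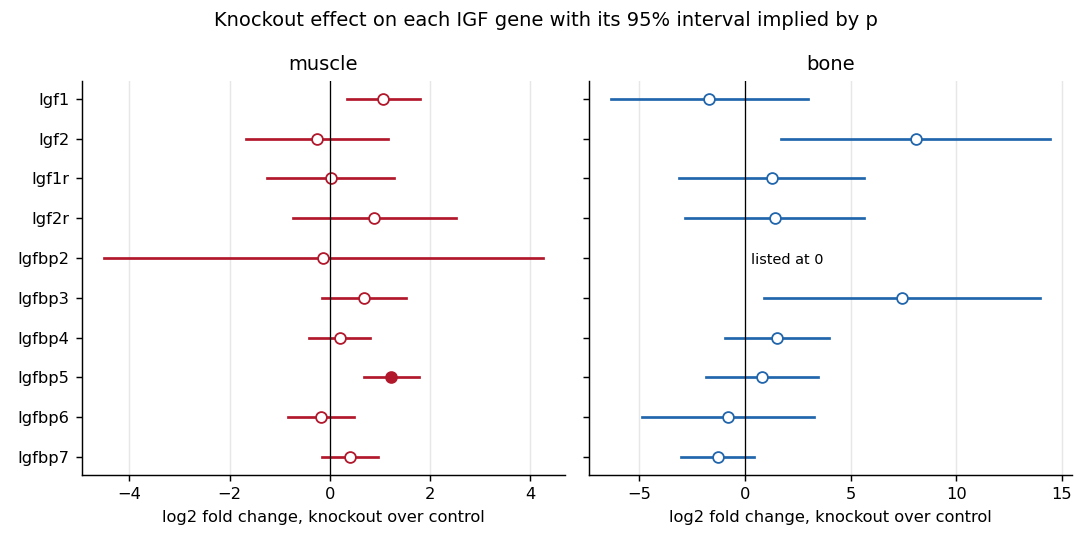
Log2 fold change of each IGF gene, knockout over control, in muscle (left) and bone (right), with bars for the 95% interval implied by the deposited p and a filled circle for a called gene. The horizontal scales differ. Igfbp5 in muscle is the filled circle, at 1.23, and Igfbp2 was listed at 0 in bone.

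RefSeq starts of the 2 genes with the smallest p in muscle are shown because the deleted factor binds DNA. Estrogen receptor alpha recognises an element made of GGTCA, 3 bases of any kind and TGACC, and a single GGTCA, or TGACC on the other strand, is 1 arm of it. Promoter windows of 300 bases, from 250 before to 50 after each RefSeq start on GRCm38.p6, were found for all 10 genes, 14 windows in all. The Igfbp5 window is chr1:72874816-72875115 on the minus strand and the Igf1 window is chr10:87860861-87861160 on the plus strand. Both are written 5′ to 3′ along the gene, with the arms in capitals.
Igfbp5: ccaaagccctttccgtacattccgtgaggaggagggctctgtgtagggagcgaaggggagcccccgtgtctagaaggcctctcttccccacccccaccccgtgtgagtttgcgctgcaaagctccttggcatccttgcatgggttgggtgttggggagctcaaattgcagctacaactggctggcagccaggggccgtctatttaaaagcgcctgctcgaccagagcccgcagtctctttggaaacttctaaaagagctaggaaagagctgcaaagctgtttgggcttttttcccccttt
Igf1: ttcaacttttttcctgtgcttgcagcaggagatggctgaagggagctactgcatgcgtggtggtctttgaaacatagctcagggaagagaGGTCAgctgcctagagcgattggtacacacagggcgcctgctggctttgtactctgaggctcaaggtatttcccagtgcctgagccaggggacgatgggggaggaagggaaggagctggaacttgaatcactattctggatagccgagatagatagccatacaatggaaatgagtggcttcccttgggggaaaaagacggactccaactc
The Igfbp5 window held no arm, and the Igf1 window held 1, which begins 160 bases before its RefSeq start. That Igf1 start lies inside the gene as annotated in GENCODE M21, which begins at 87858265. The sequence around 87858265 was not searched. None of the 14 windows held the whole element, which 0.0700% of 32851 RefSeq promoter windows did. An arm on either strand was present in 8 of the 14 windows and in 40.5% of all windows. Igf2 had 4 windows, of which 2 held an arm, and Igfbp2 had 2, of which 1 did. Igf1r, Igf2r, Igfbp6 and Igfbp7 had 1 window each, with an arm in each of them, and the windows of Igfbp3 and Igfbp4 held none. For Igf1r, Igf2r, Igfbp6 and 1 of the Igf2 windows with an arm, the window's end was found in no GENCODE M21 transcript of the gene. That annotation does not back these RefSeq starts. A match describes the letters only, and sites farther from the start were not searched.

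Position sets some of these genes beside each other. Igfbp5 lies on chromosome 1 from 72857932 to 72874884 on GRCm38, on the minus strand, and Igfbp2 from 72824503 to 72852474 on the plus strand. Their 3' ends face each other across 5457 bases with no annotated gene between them. Igfbp5 was at a larger group mean of 1406 in the authors' deposited table for muscle and its neighbour at 1.26. Igfbp3 (chromosome 11, 7206086 to 7213923, minus strand) faces Igfbp1 across 3539 bases, and Igfbp1 was listed at 0 in both tissues while Igfbp3 was at 308 in muscle in the authors' deposited table. Igf1 lies on chromosome 10 from 87858265 to 87937042, Igf2 on chromosome 7 from 142650766 to 142666816, Igf1r on chromosome 7 from 67952827 to 68233668 and Igf2r on chromosome 17 from 12682406 to 12769664. Igfbp4 lies on chromosome 11 from 99041244 to 99054392, Igfbp6 on chromosome 15 from 102144362 to 102149511 and Igfbp7 on chromosome 5 from 77349240 to 77408041.

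A 3' tag is assigned by the end of a transcript, so ends shared between genes bear on the values. In 8 of the 10 genes, no stretch of 50 bases within the last 300 bases of any GENCODE M21 transcript was found in a transcript of another gene, Igfbp5 and Igf1 among them. All 9 Igf2 transcripts shared their end with Gm49394, an overlapping coding gene listed at 0 in both tissues, so the Igf2 values are uncertain. For Igfbp4, 1 of 6 transcripts ended in sequence found in 80 other genes. On the opposite strand Igfbp7 overlaps the end of Polr2b, an RNA polymerase subunit gene with a larger group mean of 27.8 in the authors' deposited table for muscle. Igf2r overlaps the antisense RNA Airn, and Igf1 and Igf2 overlap annotated antisense RNAs. The sources used here do not say whether the authors counted by strand.

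In bone, none of the 9 IGF genes with an FDR was called, beside 0.0352% of 8534 genes, 3 in number. With the authors' FDR under 0.1 instead, 2 of the 9 passed, Igf2 and Igfbp3, both higher, beside 32.2% of all genes. The same 2 had an unadjusted p under 0.05, beside 33.0% of the 10518 genes with a p. For Igf2 the authors' deposited table gave 8.07 as log2 fold change (95% interval 1.72 to 14.4, FDR = 0.0790) at a larger group mean of 7.37. Igfbp3 had 7.42 in the authors' deposited table (95% interval 0.87 to 14.0, FDR = 0.0926) at a larger group mean of 3.63. Dividing these means by the fold puts the other group at 0.0275 for Igf2 and 0.0212 for Igfbp3, near 0, so the fold changes are no estimates of size.

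Values of that kind were common among weakly detected bone genes. The 1545 genes with a larger group mean above 5 and up to 10 had a median log2 fold change of 7.63 and a 95th percentile of 8.49, which holds Igf2. The 1564 genes above 2 and up to 5 had a median of 6.72 and a 95th percentile of 7.57, which holds Igfbp3. All 9 bone values lay inside the 5th to 95th percentile range of genes with a like larger group mean. This depended on the bins. With bins of the mean of both implied group means, Igfbp3 lay above the range (95th percentile 7.34) and Igfbp7 below it (5th percentile -0.97). With bins of the smaller implied mean, Igfbp4 lay above it (95th percentile 1.39) and Igfbp7 below it (5th percentile -0.94). Igf2r, with nearly the same larger group mean as Igf2, had 1.40 in the authors' deposited table (FDR = 0.737).

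The more abundant IGF genes of bone had smaller values in both directions. Igfbp7 had -1.30 in the authors' deposited table (SE 0.87, 95% interval -3.01 to 0.41, p = 0.137) and Igfbp4 had 1.50 (SE 1.25, 95% interval -0.95 to 3.95, p = 0.229). Igfbp5, called in muscle, had 0.80 in the authors' deposited table (SE 1.35, 95% interval -1.84 to 3.43, FDR = 0.764), an interval that holds 0 as well as the muscle value of 1.23. Igfbp6 had -0.81 (SE 2.07), Igf1 -1.69 (SE 2.38) and Igf1r 1.26 (SE 2.23) in the authors' deposited table. In all, 6 of 9 bone values were positive with a median of 1.26, beside 69.7% positive and a median of 2.51 over all genes with a p. The 5 erythroid and 5 leukocyte markers were all positive in this comparison, with medians of 0.99 and 2.88, at summed larger group means of 686022 and 10380. Of the 8 mesenchymal markers 6 were positive, with all values from -1.43 to 7.70. Dcn (-0.69 at a larger group mean of 674) and Lum (-1.43 at 83.5), the most abundant of them, were negative. The positive ones had larger group means from 0.303 (Dpp4) to 48.1 (Ly6a). The 3 chondrocyte markers were negative, with a median of -1.11 at a sum of 2429, and the 3 marrow stroma markers were positive, with a median of 2.25 at a sum of 1251. Of the 5 osteoblast markers 3 were positive, with a median of 0.34 at a sum of 563 and all values from -3.95 to 8.04. Alpl (-3.95 at a larger group mean of 162) and Bglap (-1.21 at 105) were negative. Ibsp (0.34 at 289), Runx2 (8.04 at 7.27) and Sp7 (3.29 at 0.245) were positive. Of the 3 endothelial markers, Pecam1 had 3.75 at a larger group mean of 0.304, and Cdh5 and Kdr were at 0. The 5 mural markers with a p had values from -7.57 to 8.27, 3 of them positive, at a sum of 54.5. The part of these cell markers in the bone IGF values was not tested.

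**Figure D3:**
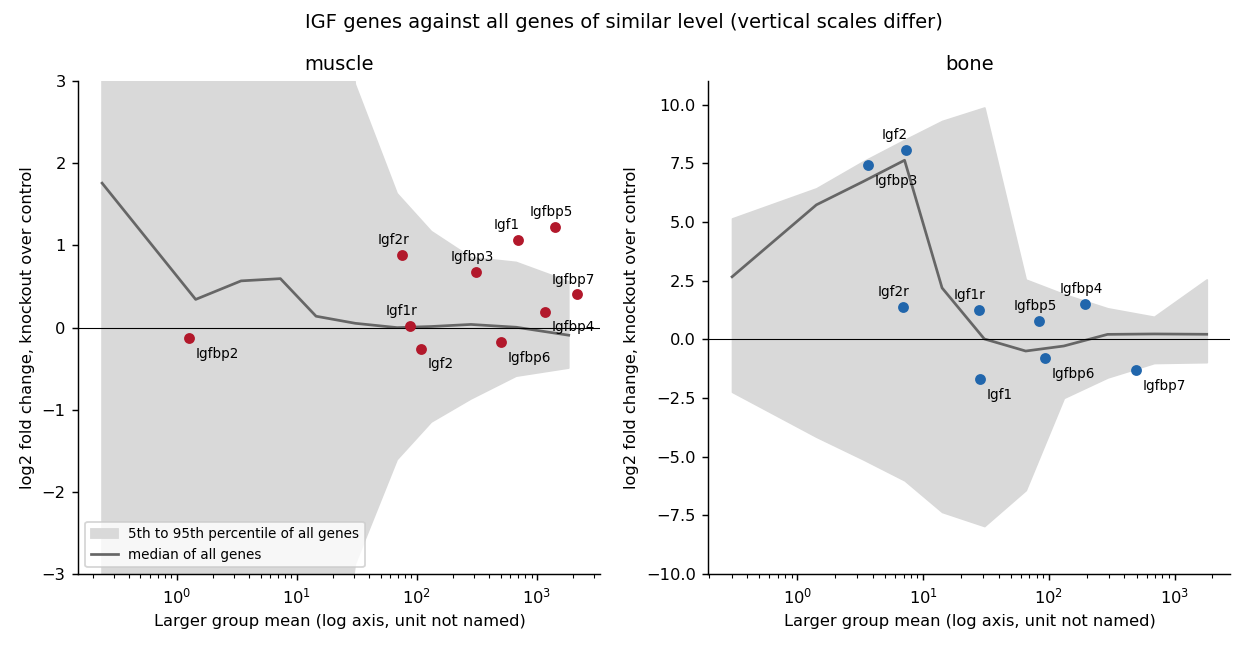
Log2 fold change against larger group mean (log axis) for the IGF genes (points), over the 5th to 95th percentile (grey) and the median (line) of all genes with a p, in bins of the larger group mean. The vertical scales differ, and the grey area runs beyond the muscle panel at low levels. The bins use the larger group mean, which for Igfbp5 and Igf1 in muscle is the knockout mean. Both lie above the grey area in muscle, and Igf2 and Igfbp3 lie near the median line of weakly detected genes in bone.

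The precision of the effect differed between the tissues for every IGF gene measured in both. The implied standard error in bone was 2.61 to 7.82 times that in muscle, with a median of 4.46. In muscle it ran from 0.28 for Igfbp5 and Igfbp7, which had the highest larger group means, to 2.23 for Igfbp2, which had the lowest. For a p of 0.05, Igfbp5 would have needed a log2 fold change of 0.55 in muscle and 2.64 in bone. Igf1 would have needed 0.72 in muscle and 4.67 in bone. Igfbp7, the most precise in bone, would have needed 1.71 there. A bone effect of the size seen for Igfbp5 or Igf1 in muscle was thus not detectable at this precision.

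**Figure D4:**
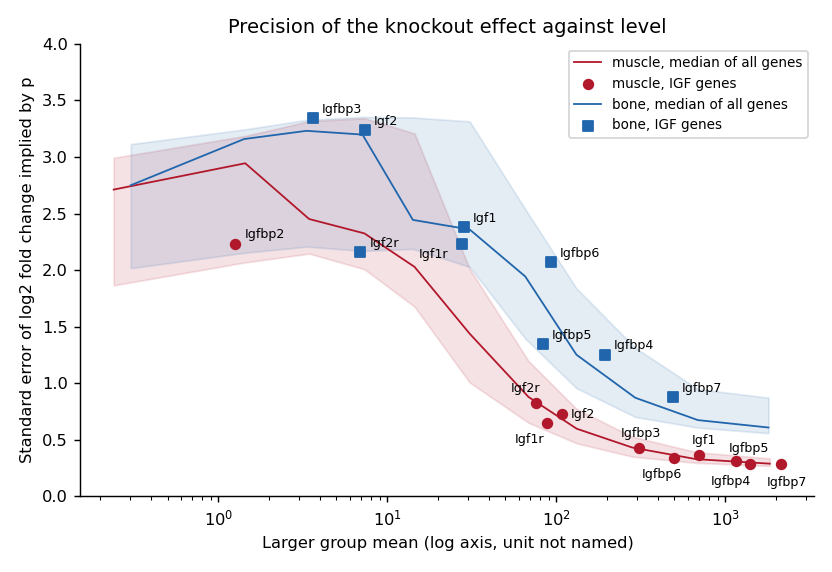
Standard error of the log2 fold change implied by the deposited p, against larger group mean (log axis), for IGF genes (points) with the median (lines) and the 5th to 95th percentile (shading) of all genes with a p. Bone points lie above muscle points of the same gene, 2.61 to 7.82 times higher.

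The effects in muscle and bone were then compared for the 9 IGF genes with a p in both. With no value per sample an exact test was not possible. The difference of the 2 log2 fold changes was instead set against the errors implied by the authors' p-values, a two-sided normal approximation that rests on 3 samples a group. After Benjamini-Hochberg adjustment over 9598 genes, 0% were called and none of the 9 was among them, while 24.6% of all genes had an unadjusted p under 0.05. Muscle minus bone was -8.32 for Igf2 (95% interval -14.8 to -1.82) and -6.75 for Igfbp3 (95% interval -13.3 to -0.14). Their adjusted values, from the authors' p-values, were 0.115 and 0.193. In both, 1 of the bone groups was near 0, as described above. For Igfbp7 it was 1.70 (95% interval -0.10 to 3.50), from 0.40 in muscle and -1.30 in bone. For Igf1 it was 2.76 (95% interval -1.96 to 7.48) and for Igfbp5 0.43 (95% interval -2.26 to 3.13). Adjusted values of these 3, from the authors' p-values, were 0.234, 0.507 and 0.898, and those of the remaining 4 ran from 0.571 to 0.937. These intervals are wide, and they do not show that the genes responded alike in the 2 tissues.

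Genes that act with the IGFs were read from a list of 43, of which 42 had a row. It holds the insulin receptor, adaptors, the PI3 kinase, AKT, FOXO and mTOR branch, proteases and inhibitors that act on the binding proteins, growth hormone signalling and matrix receptors. In muscle none of the 29 with an FDR was called at the authors' FDR under 0.05, and at an unadjusted p under 0.05 there were 2 higher and 1 lower among 37 with a p, beside 11.7% of all muscle genes. Their median was -0.08, with 18 of 37 positive, beside 0.12 and 53.5% over all genes. Itgav, an integrin subunit, had the smallest p, at 2.92 (p = 0.0229, FDR = 0.606) in the authors' deposited table. Plagl1, an imprinted zinc finger factor known to regulate growth genes, was next at -1.75 (p = 0.0287, FDR = 0.672) in the authors' deposited table. Rptor, the mTOR partner, had 6.91 (p = 0.0320) at a larger group mean of only 6.22 in the authors' deposited table, and no FDR. Insr had 3.04 (p = 0.145) at a larger group mean of 10.7 in the authors' deposited table, and no FDR. Foxo1 had 1.17 (p = 0.190) and Stc1, a PAPP-A inhibitor, -1.33 (p = 0.272) in the authors' deposited table. Lrp1, a scavenger receptor that binds several ligands, was the most abundant of the list at 540 and had 0.35 (p = 0.301) in the authors' deposited table. The liver carrier subunit gene Igfals was listed at 0 in muscle, as were Igfbp1, Igfbpl1, Grb14 and Igf2bp1.

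**Figure D5:**
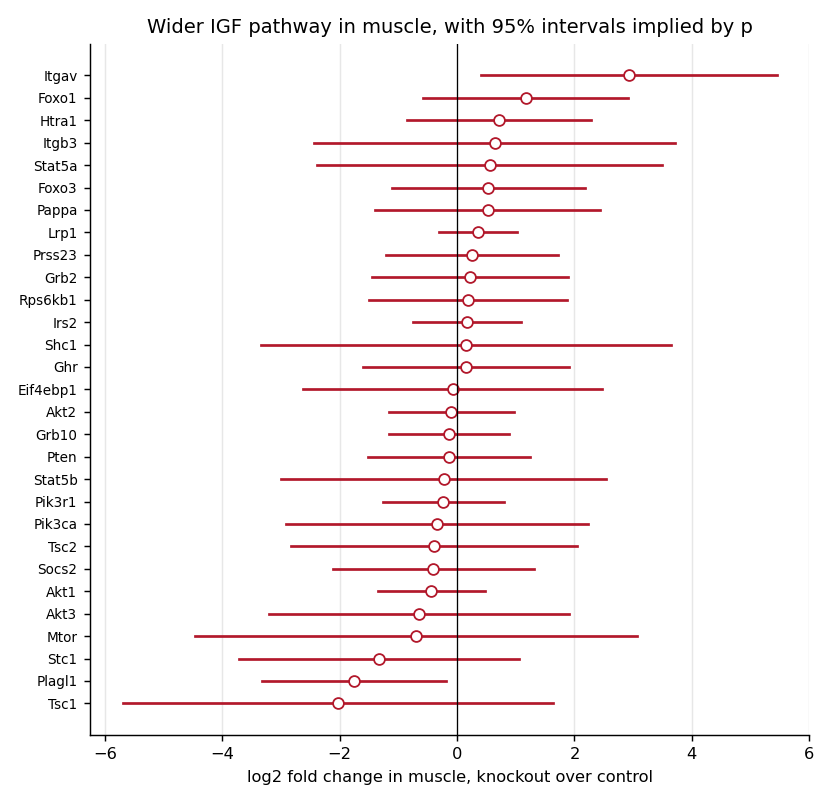
Log2 fold change in muscle, knockout over control, of the 29 genes of the wider IGF pathway list that have an FDR, with bars for the 95% interval implied by the deposited p. None was called, and the intervals of Itgav (2.92) and Plagl1 (-1.75) are the ones that do not hold 0.

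In bone none of the 29 listed genes with an FDR was called at the authors' FDR under 0.05, and at an unadjusted p under 0.05 there were 6 higher and 1 lower among 32 with a p, beside 33.0% of all bone genes. At an FDR under 0.1 there were 4 higher and 1 lower among 29, beside 32.2% of all bone genes. Those higher were Eif4ebp1 (10.44), a translation repressor, Rps6kb1 (9.21), the S6 kinase, Shc1 (6.55), an adaptor, and Mtor (7.51) in the authors' deposited table. In the order named, they reached larger group means of 37.3, 15.8, 9.01 and 4.96, and dividing by the fold leaves 0.0268, 0.0266, 0.0959 and 0.0272 for the other group, so these fold changes are no estimates of size. Igfals was the lower one, with -7.94 at a larger group mean of 17.3 in the authors' deposited table (FDR = 0.0816), where dividing by the fold leaves 0.0703 for the other group. Foxo3 followed with 4.43 (p = 0.0378, FDR = 0.106) in the authors' deposited table. Insr and Irs1, the insulin receptor and one of its substrates, were listed at 0 in bone. The list's median was 0.47, with 19 of 32 positive, beside 2.51 and 69.7% over all genes.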

How the data were processed

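Three-prime mRNA libraries (QuantSeq kit) of 12 samples were made from sorted cells, per the labels' protocols. The submitters' processing notes name GRCm38 and mm10, and the sources used here do not name the aligner, the counter or the test. There was 1 table per tissue. The deposited log2 fold changes, p-values, FDR and Bonferroni p-values are the authors' knockout over control comparison, per the file headers. The larger group mean is a score of no named unit, deposited by the authors, and the means of all genes sum to 1150350 in muscle and 1171400 in bone. A further 48 columns, 4 kinds of value for 12 libraries, match no label and were not used, so the planned count tests were replaced by the authors' comparison. Genes with a p were those with a larger group mean above 0. Recomputed Benjamini-Hochberg values over genes with an FDR differed from the deposited FDR by at most 0.000995.

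The mean of the other group was the larger mean divided by the fold. Standard errors were the absolute log2 fold change divided by the two-sided normal quantile of p. The difference between tissues was divided by the root of the summed squared errors. The code was tested on data simulated from the same normal model that the method assumes (Python 3.11.15, scipy 1.17.1). Differences were planted only in genes with smaller errors than most of the IGF genes. That test therefore checks the code and not the method's precision for these genes. Members, gene lists and alternatives were chosen with earlier results of these data known. The text names all members, Esr1, Pdgfra and the 6 pathway genes of smallest p per tissue, and other genes named were chosen after their values were seen. Positions are GENCODE M21 (GRCm38), matched by Ensembl ID. The tables' own regions had the same length for all 10 genes and the same start for 0, offset by 39159 to 446263 bases, so they were not used. Sequences are RefSeq, GRCm38.p6.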

Additional observations from a re-analysis of the deposited data

How the results depend on the processing

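No paired analysis was possible because the columns of single libraries carry no sample label, and for the same reason leaving out replicates, DESeq2 and a filter on low counts were not run. The adjusted value of Igfbp5 in muscle was 0.0180 as the authors' FDR and 0.166 with Bonferroni. The count of IGF genes called in muscle was 1 at the authors' FDR under 0.05 and 0 with their Bonferroni p, and it stayed at 1 in the other 3 settings (FDR under 0.1, adjustment over all genes with a p, and over genes whose larger group mean reached 50). The count in bone was 0, and 2 at an FDR under 0.1. The list of 43 pathway genes had 0 calls at the authors' FDR under 0.05 in both tissues. In the 4 settings added after seeing the data it had 0 calls in muscle, and in bone 5 at an FDR under 0.1 and 0 in the other 3. With bins of other levels, also added after seeing the data, 2 IGF genes lay outside the range of muscle genes of their level in all 3 kinds of bin, and in bone 0 with the larger group mean and 2 with either other level. Over the 1129 genes whose larger group mean reached 50 in both tissues, 4 IGF genes were compared and none passed (adjusted p of 0.990 for each). Errors rest on a normal statistic, which the tables do not state.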
